A study of Mus musculus with 9 samples.

Results

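The GATA factors and the erythroid-megakaryocytic transcription complex were followed across 3 mouse cell lines. The 10 genes were chosen by name from the 54347 genes of the count table, as the GATA factors that the myeloid transcription factor PU.1 antagonizes and their complex partners: *Gata1*, *Gata2*, *Gata3*, *Zfpm1*, *Tal1*, *Lmo2*, *Lyl1*, *Ldb1*, *Gfi1b* and *Klf1*. Each symbol matched 1 row of the table, and all 10 genes were among the 13082 genes tested. *Gata3* passed the filter on low counts only through 1 line, Hox-URE.

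Poly-A RNA was sequenced from 3 libraries of each line. Hox-WT carried the wild-type (WT) genotype and Hox-URE the UREd/d genotype, a deletion of the URE. This upstream regulatory element drives *Spi1*, which encodes PU.1. Both are hematopoietic progenitor lines that were made from lineage-negative c-Kit+ bone marrow cells with a fusion of Hoxb8 and the estrogen receptor, which is active while estradiol is in the medium. URE-AML, labelled B22, is an acute myeloid leukemia (AML) blast-like line with the same UREd/d genotype, grown out of the blasts of a diseased mouse. All 3 lines were kept in IMDM with fetal calf serum, IL-3, IL-6, SCF and estradiol. Each combination of genotype and disease stage was represented by 1 line, and no source says whether separate cultures were sampled for each library, so each p-value measures the spread between libraries, which may be technical.

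GATA factors are zinc finger proteins that bind the DNA motif GATA. GATA2 serves stem and progenitor cells, mast cells and basophils, GATA1 serves red cells, megakaryocytes, mast cells and basophils, and GATA3 is best known from T cells. On DNA, a GATA factor can sit beside TAL1 paired with an E protein, joined to it by LMO2 and LDB1, while ZFPM1 (FOG1) binds the GATA protein itself. PU.1 and GATA1 are known to bind and inhibit each other in early blood progenitors, which is why these genes were examined in lines that differ in *Spi1*.

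*Spi1* was checked first. Its level was 109.9, 101 and 96.5 CPM (counts scaled to library size) in Hox-WT, 1, 1 and 0 counts were found in the Hox-URE libraries, and URE-AML had 2.5, 5.52 and 6.35 CPM. The lines did not overlap, and URE-AML held a residual *Spi1* level that lay between the other lines. *Hoxb8* had 61.6 to 69.7 CPM in Hox-WT, 127 to 141 CPM in Hox-URE and 0 counts in URE-AML. *Ptprc*, the pan-leukocyte antigen gene, had 152 to 169.8 CPM in Hox-WT, 0 counts in every Hox-URE library and at most 1 count in a URE-AML library. Total counts were 20331064 to 28588718 per library, and a floor of 3 counts stood at 0.104 to 0.153 CPM, which covers counting error only.

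Between Hox-URE and Hox-WT, *Gata2*, *Gata3*, *Zfpm1*, *Tal1* and *Gfi1b* were higher in Hox-URE and *Gata1* was lower, while *Lmo2*, *Lyl1*, *Ldb1* and *Klf1* were not called. Calls required a change of more than 1.5-fold and an edgeR quasi-likelihood p that stayed under 0.05 after adjustment across all genes. Of the 10 genes 6 were called, against 37.2% of all genes tested (21.3% higher and 15.9% lower), and the 6 include *Gata3*, which entered the test through the line where it is high. The 10 genes had a median change of 0.31 on the log2 scale, beside 0.00025 for all genes tested. Since the background is high, the share of the 10 genes that was called is no result about the group, and the genes are described singly.

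URE-AML showed another pattern. Against Hox-WT, *Gata2*, *Zfpm1*, *Lmo2*, *Tal1* and *Ldb1* were lower and *Gfi1b* was higher, so that 6 of 10 genes were called against 43.2% of all genes tested (23.0% higher and 20.2% lower). Against Hox-URE, *Gata2*, *Gata3*, *Zfpm1*, *Tal1* and *Lmo2* were lower and *Gata1* was higher, again 6 of 10 against 42.7% (20.3% higher and 22.4% lower). These 6 again include *Gata3*, which entered the test through Hox-URE alone. The median log2 fold changes of the 10 genes were -0.49 and -0.91, beside 0.0016 and 0 for all genes tested. In the first of these medians *Gata3* stands at 0, since both lines had 0 counts. The 3 comparisons reuse the same libraries, and each is therefore given by its own values.

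**Figure D1:**
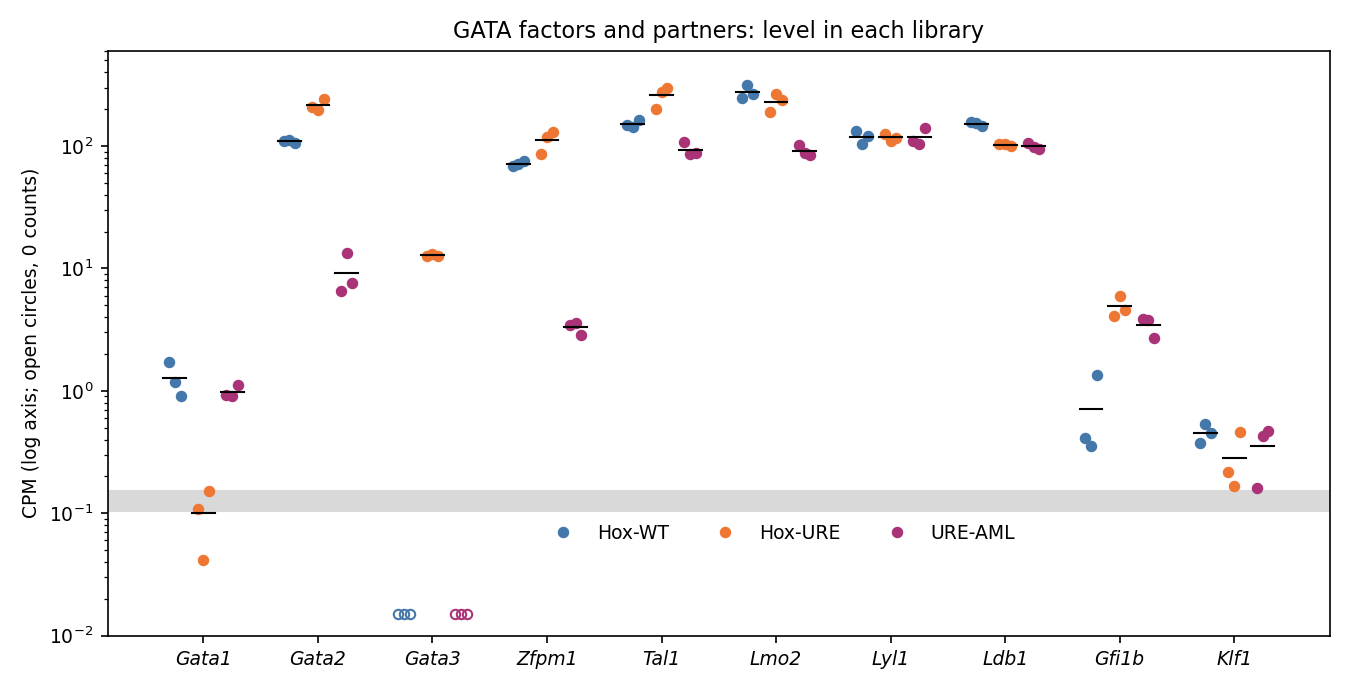
Level of the 10 genes in each of the 9 libraries, in CPM on a log axis. Points are libraries, black bars are means of a line, open circles are libraries with 0 counts drawn at the bottom, and the grey band is the range of the 3-count floor (0.104 to 0.153 CPM). The URE-AML means of *Gata2* and *Zfpm1* lie more than 10-fold below those of both Hox lines, *Gata3* has counts only in Hox-URE, and *Lyl1* is level in all 3 lines.

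The promoters of *Gata2*, *Zfpm1*, *Gata3*, *Gfi1b* and *Tal1*, the genes called higher in Hox-URE against Hox-WT, are shown for the presence of GATA motifs. Promoters of 250 bases before and 50 after a start site were taken from RefSeq (GRCm38.p6), which gave 13 promoters for 9 of the 10 genes. They are written 5′ to 3′ along the gene, and capitals mark a GATA hexamer, which is the word AGATAA, the word AGATAG, the word TGATAA or the word TGATAG, on either strand.
*Gata2*, chr6:88193641-88193940, plus strand: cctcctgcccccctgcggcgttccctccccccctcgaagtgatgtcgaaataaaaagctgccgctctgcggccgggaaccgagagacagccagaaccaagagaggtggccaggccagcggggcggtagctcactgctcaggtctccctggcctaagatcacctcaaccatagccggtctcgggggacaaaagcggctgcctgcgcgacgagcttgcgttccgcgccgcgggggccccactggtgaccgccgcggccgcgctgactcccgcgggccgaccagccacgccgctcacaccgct
*Zfpm1*, chr8:122281891-122282190, plus strand: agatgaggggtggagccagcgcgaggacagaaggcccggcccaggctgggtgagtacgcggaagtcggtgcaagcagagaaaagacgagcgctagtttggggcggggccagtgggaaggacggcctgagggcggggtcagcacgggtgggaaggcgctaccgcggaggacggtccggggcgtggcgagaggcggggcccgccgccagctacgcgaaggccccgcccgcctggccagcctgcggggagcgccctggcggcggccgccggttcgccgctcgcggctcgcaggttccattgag
*Gata3*, chr2:9878551-9878850, minus strand: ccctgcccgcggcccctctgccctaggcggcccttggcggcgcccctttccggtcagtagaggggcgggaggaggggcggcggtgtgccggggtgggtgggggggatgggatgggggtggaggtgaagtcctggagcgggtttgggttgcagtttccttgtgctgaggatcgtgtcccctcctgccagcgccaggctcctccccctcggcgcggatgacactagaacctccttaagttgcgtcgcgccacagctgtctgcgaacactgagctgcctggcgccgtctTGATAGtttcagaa
*Gfi1b*, chr2:28621933-28622232, minus strand: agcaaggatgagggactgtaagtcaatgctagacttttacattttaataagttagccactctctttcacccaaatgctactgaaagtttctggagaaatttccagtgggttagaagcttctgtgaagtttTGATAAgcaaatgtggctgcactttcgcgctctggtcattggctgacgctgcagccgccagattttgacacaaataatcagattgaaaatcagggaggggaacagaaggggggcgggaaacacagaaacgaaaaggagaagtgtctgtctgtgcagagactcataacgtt
*Tal1*, chr4:115056176-115056475, plus strand: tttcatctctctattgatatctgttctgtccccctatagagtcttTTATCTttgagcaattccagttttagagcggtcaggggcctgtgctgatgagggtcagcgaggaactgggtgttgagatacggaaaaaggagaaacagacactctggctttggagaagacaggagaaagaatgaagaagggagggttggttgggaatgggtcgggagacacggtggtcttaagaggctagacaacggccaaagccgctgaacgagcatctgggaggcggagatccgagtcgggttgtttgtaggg
The first *Gata2* promoter and the *Zfpm1* promoter held no such hexamer, the *Gata3* promoter held TGATAG 36 bases after the start site, the *Gfi1b* promoter held TGATAA 120 bases before it, and the first *Tal1* promoter held AGATAA on the opposite strand 205 bases before it. Of the 13 promoters 5 held a GATA hexamer, beside 29.8% of all 32851 promoters in the table. The E-box word CAGATG was found in 2 of 13, beside 17.2%, and GAGGAA, the core of many PU.1 sites, in 4 of 13, beside 28.3%. *Klf1* carried both a TGATAA 80 bases and a CAGATG 59 bases before its start site. A match is a description of letters and not a bound site.

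*Gata1* (ENSMUSG00000031162, chromosome X, 7959260 to 7978071 of GRCm38, minus strand, protein-coding) encodes the GATA factor of red cells, megakaryocytes, mast cells and basophils. Its level was low in every line. Hox-WT libraries had 1.72, 1.18 and 0.899 CPM from 46, 33 and 26 counts, Hox-URE libraries had 0.109, 0.0414 and 0.153 CPM from 3, 1 and 3 counts, and URE-AML libraries had 0.929, 0.904 and 1.12 CPM from 23, 19 and 26 counts. All Hox-URE libraries lay below all others and at or under the floor, while Hox-WT and URE-AML overlapped. The 7 counts in Hox-URE against 105 in Hox-WT gave a ratio of 0.0783 after scaling, with a 95% counting interval of 0.0307 to 0.167, and the fitted difference was -3.61 ± 0.49 on the log2 scale (SE, edgeR adjusted p = 0.000156). URE-AML exceeded Hox-URE by 3.25 ± 0.49 on the log2 scale (edgeR adjusted p = 0.000276) and did not differ detectably from Hox-WT (-0.36 ± 0.37, edgeR adjusted p = 0.433). *Gata1* is X-linked, and Hox-URE also differs in its sex-linked transcripts: *Xist* had 0 counts there, 635 to 720 in Hox-WT and 360 to 926 in URE-AML, and 4 Y-linked genes summed to 2732 to 4092 counts in Hox-URE and at most 2 elsewhere. The 392 X-linked genes tested had a median log2 fold change of 0.077 between Hox-URE and Hox-WT. Sex and genotype cannot be told apart for this pair.

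*Gata2* (ENSMUSG00000015053, chromosome 6, 88193891 to 88207032, plus strand, protein-coding) was the most abundant GATA factor transcript in every line. Its first promoter, shown above, held no GATA hexamer. Levels were 109.9, 112 and 106 CPM in Hox-WT, 209, 198 and 244 CPM in Hox-URE, and 6.50, 13.3 and 7.60 CPM in URE-AML. The 3 lines did not overlap, and the order Hox-URE, Hox-WT, URE-AML held for every library. Hox-URE was 1.99-fold above Hox-WT (log2 fold change 0.99 ± 0.20 SE, edgeR adjusted p = 0.00226). URE-AML was 12-fold below Hox-WT (-3.59 ± 0.23, edgeR adjusted p = 5.2e-07) and 23.9-fold below Hox-URE (-4.58 ± 0.24, edgeR adjusted p = 1.33e-07).

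*Gata3* (ENSMUSG00000015619, chromosome 2, 9857078 to 9890034, minus strand, protein-coding) was found only in Hox-URE, where the libraries had 12.7, 13.2 and 12.6 CPM from 350, 318 and 247 counts. Every Hox-WT and URE-AML library had 0 counts. Measured against the floor of 3 counts per library, *Gata3* in Hox-URE stood at least 119-fold above Hox-WT, and URE-AML stood at least 98.2-fold below Hox-URE. No p is given for *Gata3*, since it was tested only through the line where it is high. The spread between Hox-URE libraries was small, at 12.8 ± 0.293 CPM (SD, n = 3). An overlapping antisense transcript, *Gm13256*, which shares 155 exon bases with *Gata3*, had at most 1 count in any library.

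The balance of *Gata1* and *Gata2* within a library does not depend on scaling between libraries. The log2 ratio of *Gata1* to *Gata2* counts, with 0.5 counts added to each, was -5.98, -6.55 and -6.85 in Hox-WT, -10.68, -11.64 and -10.42 in Hox-URE, and -2.78, -3.85 and -2.74 in URE-AML. Means were -6.46 ± 0.44, -10.91 ± 0.64 and -3.12 ± 0.63 (SD, n = 3), so *Gata2* exceeded *Gata1* in all 9 libraries, most in Hox-URE and least in URE-AML. The lines did not overlap. The differences in mean log2 ratio were -4.45 for Hox-URE against Hox-WT, 3.34 for URE-AML against Hox-WT and 7.79 for URE-AML against Hox-URE. The two-sided exact permutation test gave p = 0.1 for each of the 3 pairs (0.1 after Benjamini-Hochberg adjustment), the smallest value that this test allows for 3 against 3 libraries, so it cannot pass 0.05 here. With 2 counts added in place of 0.5, the differences that involve Hox-URE, where *Gata1* has 1 to 3 counts, were -3.84 against Hox-WT and 7.19 for URE-AML against Hox-URE.

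**Figure D2:**
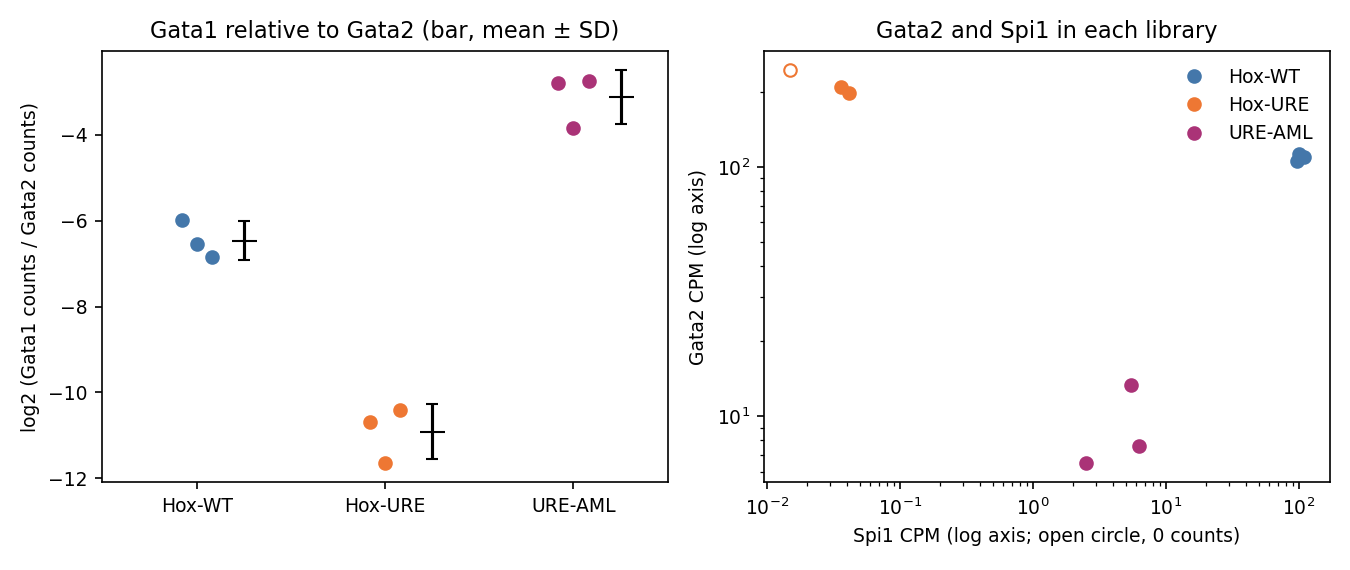
Left, log2 ratio of *Gata1* to *Gata2* counts in each library with the mean ± SD of each line (n = 3). Right, *Gata2* against *Spi1* in each library, both in CPM on log axes, with the Hox-URE library at 0 *Spi1* counts drawn as an open circle at the left edge. The lines form separate groups in both panels, and *Gata2* is highest in Hox-URE, where *Spi1* has at most 1 count, and lowest in URE-AML, whose *Spi1* level lies between those of the other lines.

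*Zfpm1* (ENSMUSG00000049577, chromosome 8, 122282141 to 122337251, plus strand, protein-coding) encodes FOG1, the cofactor that binds GATA proteins. It had 68.3, 71.3 and 75.5 CPM in Hox-WT, 86.1, 117 and 130.4 CPM in Hox-URE, and 3.43, 3.62 and 2.83 CPM in URE-AML. As with *Gata2*, the lines did not overlap and URE-AML was far below both Hox lines. The loss in URE-AML was 21.8-fold against Hox-WT (log2 fold change -4.44 ± 0.18 SE, edgeR adjusted p = 1.9e-08) and 33.8-fold against Hox-URE (-5.08 ± 0.18, edgeR adjusted p = 1.1e-08), the largest of the 10 genes among those with counts in both lines compared. The increase in Hox-URE was 1.55-fold (0.63 ± 0.15, edgeR adjusted p = 0.00433) and rested on library choice. Without Hox-URE library 2 or library 3 the log2 fold change was 0.58 or 0.50, and with library size as the only scaling it was 0.52, all 3 short of the 1.5-fold threshold.

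*Tal1* (ENSMUSG00000028717, chromosome 4, 115056426 to 115071755, plus strand, protein-coding), the basic helix-loop-helix factor of blood stem cells, red cells and megakaryocytes, followed the same order at a smaller scale. Hox-WT libraries had 149, 143 and 163 CPM, Hox-URE libraries had 201, 277 and 299.9 CPM, and URE-AML libraries had 108, 85.3 and 87.1 CPM. Again no library of a line overlapped those of another. *Tal1* in Hox-URE was 1.71-fold above Hox-WT (log2 fold change 0.77 ± 0.15 SE, edgeR adjusted p = 0.00174) and in URE-AML 1.62-fold below it (-0.69 ± 0.15, edgeR adjusted p = 0.00286). URE-AML was 2.77-fold below Hox-URE (-1.47 ± 0.15, edgeR adjusted p = 2.21e-05). A test against a fold change of 1.5 did not call the first pair of differences (adjusted p = 0.13 and 0.237).

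*Lyl1* (ENSMUSG00000034041, chromosome 8, 84701457 to 84704715, plus strand, protein-coding), the closest paralog of *Tal1*, was level in the 3 lines. It had 134, 104 and 119.9 CPM in Hox-WT, 125, 109.7 and 117 CPM in Hox-URE, and 110.02, 104 and 139 CPM in URE-AML. The libraries of the lines overlapped throughout. Log2 fold changes were -0.02 ± 0.13, -0.02 ± 0.13 and 0.0041 ± 0.13 (SE) for Hox-URE against Hox-WT, URE-AML against Hox-WT and URE-AML against Hox-URE (edgeR adjusted p = 0.916, 0.928 and 0.987). *Lyl1* lies within *Nfix* on the opposite strand and shares 4 exon bases with it.

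*Lmo2* (ENSMUSG00000032698, chromosome 2, 103957986 to 103981878, plus strand, protein-coding), the LIM-only protein that bridges TAL1 and GATA factors, was the most abundant of the 10 genes per transcript length in both Hox lines. Its levels were 246, 316 and 265 CPM in Hox-WT, 189, 264 and 235 CPM in Hox-URE, and 102, 88.4 and 84.0 CPM in URE-AML. The Hox lines overlapped, and every URE-AML library lay below every Hox library. URE-AML was 3.01-fold below Hox-WT (log2 fold change -1.59 ± 0.15 SE, edgeR adjusted p = 7.33e-06) and 2.5-fold below Hox-URE (-1.32 ± 0.15, edgeR adjusted p = 2.94e-05). The difference between the Hox lines was -0.27 ± 0.14 (edgeR adjusted p = 0.142).

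*Ldb1* (ENSMUSG00000025223, chromosome 19, 46031570 to 46045214, minus strand, protein-coding), whose product dimerizes and links complexes on separate DNA elements, was lower by a near equal amount in both URE lines. It had 157, 153 and 145 CPM in Hox-WT, 104, 103 and 99.2 CPM in Hox-URE, and 106, 99.0 and 94.0 CPM in URE-AML. All 6 libraries with the deletion lay below the 3 Hox-WT libraries, and Hox-URE overlapped URE-AML. The log2 fold change was -0.57 ± 0.08 (SE) for Hox-URE against Hox-WT (edgeR adjusted p = 0.000174), just short of 1.5-fold and so not called, and -0.61 ± 0.08 for URE-AML against Hox-WT (edgeR adjusted p = 8.45e-05), which was called. These calls sat at the threshold. The first was made with upper-quartile scaling (-0.60), with library size only (-0.68) and without Hox-WT library 3 (-0.62), Hox-URE library 1 (-0.59) or Hox-URE library 2 (-0.59), and the second was lost without Hox-WT library 1 (-0.58) or URE-AML library 3 (-0.57). *Ldb1* shares 177 exon bases with *Pprc1* on the opposite strand, which had 1390 to 3338 counts per library, and how strand was set in counting is not given in the sources used here.

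*Gfi1b* (ENSMUSG00000026815, chromosome 2, 28609450 to 28621982, minus strand, protein-coding), the zinc finger repressor of red cell and megakaryocyte development, was higher in both URE lines. Hox-WT libraries had 0.412, 0.357 and 1.35 CPM, Hox-URE libraries had 4.12, 5.97 and 4.6 CPM, and URE-AML libraries had 3.84, 3.81 and 2.70 CPM. No library of a URE line was as low as a Hox-WT library, and all Hox-URE libraries lay above all URE-AML libraries. Hox-URE was 6.85-fold (log2 fold change 2.78 ± 0.46 SE, edgeR adjusted p = 0.000592) and URE-AML 4.83-fold (2.27 ± 0.46, edgeR adjusted p = 0.00165) above Hox-WT. Without Hox-WT library 3, which held 39 counts against 11 and 10 in the other Hox-WT libraries, the log2 fold changes were 3.64 and 3.14. The difference between the URE lines was -0.50 ± 0.41 (edgeR adjusted p = 0.32). No other gene of the 10 was called in 1 direction in both URE lines against Hox-WT, a contrast in which Hox-WT is shared. That rests on the fold threshold, since *Ldb1* was lower in both and fell just short of 1.5-fold in Hox-URE (log2 fold change -0.57).

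*Klf1* (ENSMUSG00000054191, chromosome 8, 84901928 to 84905291, plus strand, protein-coding), the globin gene activator of red cells, was barely detected. It had 10, 15 and 13 counts in Hox-WT libraries, 6, 4 and 9 in Hox-URE libraries and 4, 9 and 11 in URE-AML libraries, or 0.162 to 0.536 CPM over all 9. The lines overlapped, and no difference passed the test (log2 fold changes of -0.72 ± 0.52, -0.37 ± 0.50 and 0.35 ± 0.54, edgeR adjusted p = 0.27, 0.562 and 0.604). At these counts a difference of that size was not detectable.

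**Figure D3:**
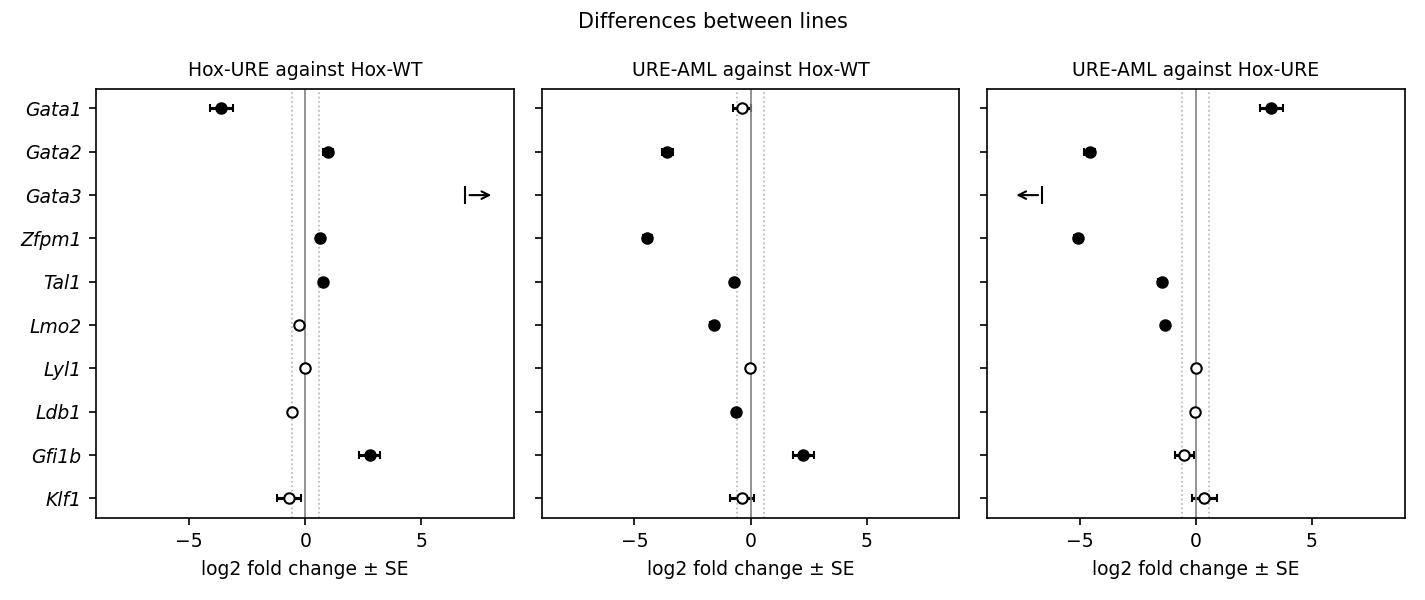
Log2 fold change ± SE of each gene in the 3 comparisons of lines. Filled points were called, open points were not, dotted lines mark 1.5-fold, and arrows are the lower bounds of *Gata3* (at least 119-fold and at least 98.2-fold). *Gata2*, *Zfpm1* and *Tal1* lie to the right of 0 in Hox-URE and to the left in URE-AML, and *Gfi1b* lies to the right of 0 in both.

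Levels can be ranked between genes only per length, here as CPM per kilobase of the median coding transcript. In Hox-WT, *Lmo2* led at 173 ± 22.7 CPM per kilobase (SD, n = 3), followed by *Ldb1* at 72.2 ± 3.02 and *Lyl1* at 66.2 ± 8.33, which did not differ beyond their spread. *Tal1* at 40.9, *Gata2* at 32.6 and *Zfpm1* at 21.1 CPM per kilobase came next, and *Gata1*, *Gfi1b* and *Klf1* were at 0.666, 0.403 and 0.296, each within the spread of its neighbour. Hox-URE kept *Lmo2* in front at 144 ± 24.0, with *Tal1*, *Lyl1* and *Gata2* at 69.95, 65.2 and 64.8, within each other's spread, *Gata3* at 4.0 and *Gata1* last at 0.0533. In URE-AML *Lyl1* at 65.4 ± 10.4 and *Lmo2* at 57.6 ± 6.07 were in front and did not differ beyond their spread. *Ldb1* at 47.4 and *Tal1* at 25.3 CPM per kilobase followed there, and *Gata2* at 2.73 ± 1.09 stood no further from *Gfi1b* at 1.97 ± 0.369 than their spread.

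Of the 10 relatives of these genes, 7 were too low to test. *Gata4*, *Gata5*, *Gata6*, *Zfpm2*, *Lmo3* and *Ldb2* had at most 2 counts in any library, and *Tal2* had at most 5. *Lmo1*, a T cell oncogene related to *Lmo2*, shared the pattern of *Gata3*, with 7.47, 6.47 and 3.47 CPM in Hox-URE and 0 counts in every other library, at least 53.8-fold above Hox-WT, and was likewise tested only through Hox-URE. *Lmo4* was level in the Hox lines (-0.09 ± 0.13 on the log2 scale, edgeR adjusted p = 0.612) and fell in URE-AML relative to Hox-WT (-1.52 ± 0.13, edgeR adjusted p = 5.45e-06). *Gfi1*, the paralog of *Gfi1b* that acts in neutrophils and stem cells, fell by 0.63 ± 0.13 on the log2 scale in Hox-URE (edgeR adjusted p = 0.00199), where *Gfi1b* rose. Without Hox-URE library 2 the relatives called in this comparison numbered 1 instead of 2, with 0 of them lower. There were 3 relatives tested, and of all genes tested 35.1% were called without that library and 37.2% with it.

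The 24 other subunits and cofactors on the list were all tested. Counts of this and the following lists are given beside the share of all genes called, and no list was tested as a set. Against Hox-WT, 1 was higher and 4 were lower in Hox-URE (37.2% of all genes tested were called), with a median log2 fold change of -0.10. The E proteins that pair with TAL1 moved apart there, since *Tcf12* rose (1.43 ± 0.12 SE, edgeR adjusted p = 4.87e-06) and *Tcf3* fell (-1.07 ± 0.09, edgeR adjusted p = 8.65e-06), beside lower *Hdac2* (-0.97), *Myb* (-0.84) and *Mta1* (-0.65). URE-AML had 7 higher and 4 lower than Hox-WT (43.2% of all genes tested were called), with a median of -0.13. Among them the E protein gene *Tcf4* rose (1.84 ± 0.10, edgeR adjusted p = 1.16e-07), as did *Ssbp3* (1.13) and *Ssbp4* (0.98), which encode partners that stabilize LDB1, and *Fli1* (0.69), while the corepressor gene *Cbfa2t3* (ETO2) fell by 1.74 ± 0.15 (edgeR adjusted p = 4.91e-06). *Bcl11a* had 3.03, 2.95 and 2.27 CPM in URE-AML and 0 counts in the Hox lines, and is among the 7 higher only through that line. *Kdm1a*, *Rcor1* and *Hdac1*, the corepressors recruited by GFI1B, were not called in Hox-URE, and in URE-AML *Rcor1* was higher (0.61 ± 0.11, edgeR adjusted p = 0.00103).

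Most red cell genes were too low to test. Of 26 listed, 25 were found and 8 could be tested, and *Rhag*, *Kel* and *Tspo2* had 0 counts in all 9 libraries. Relative to Hox-WT, Hox-URE had 0 higher and 2 lower, and URE-AML 2 higher and 5 lower (37.2% and 43.2% of all genes tested were called). Without Hox-URE library 1 the first count was 2 higher and 3 lower, and without URE-AML library 1 it was 0 higher and 4 lower. *Car2*, which encodes a carbonic anhydrase of red cells, made up most of the summed level in the Hox lines and was lower in Hox-URE and URE-AML, at 1032, 1008 and 1061 CPM in Hox-WT, 299, 558 and 697 CPM in Hox-URE and 0.404 to 0.904 CPM in URE-AML. *Hbb-bt*, an adult beta globin gene that can share reads with near-identical copies, was the other gene called lower in Hox-URE, with 83, 321 and 448 counts in Hox-WT, 0 in Hox-URE and 19, 10 and 77 in URE-AML. The genes called higher in URE-AML were the alpha globin genes *Hba-a1* and *Hba-a2*, at 8 to 174 counts per library there and 0 in Hox-WT. *Hba-a2* had counts only in URE-AML, so it entered the test through the line where it is high. *Epor*, the erythropoietin receptor gene and a GATA1 target, had at most 1.18 CPM in any library.

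Megakaryocyte genes were split. Of 20 listed, 11 were tested. Hox-URE had 6 higher and 2 lower relative to Hox-WT (37.2% of all genes tested were called), with a median log2 fold change of 0.94. *Itga2b* (CD41) had 1.91, 2.64 and 2.56 CPM in Hox-WT and 15.1, 29.8 and 40.3 CPM in Hox-URE (3.57 ± 0.44 SE on the log2 scale, edgeR adjusted p = 9.13e-05). The platelet receptor gene *Gp1ba* rose by 3.83 ± 0.46 (edgeR adjusted p = 7.32e-05) and *Itgb3* by 1.35 ± 0.21 (edgeR adjusted p = 0.000448), whereas the platelet factor gene *Pf4* fell by 2.69 ± 0.69 (edgeR adjusted p = 0.00759). In URE-AML 2 were higher and 8 lower than in Hox-WT (43.2% of all genes tested were called), with a median of -2.54. *Gp1bb*, 1 of the 2 higher, had 25, 55 and 58 counts in URE-AML and 0 in the Hox lines, and was tested only through URE-AML. *Itga2b* fell by 2.29 ± 0.56 in URE-AML (edgeR adjusted p = 0.00547). The summed level went the other way, at 293 to 332 CPM in Hox-WT, 744 to 892 CPM in Hox-URE and 1324 to 1644 CPM in URE-AML. *Thbs1*, the thrombospondin gene, made up most of the URE-AML sum, with 5.05 to 12.1 CPM in Hox-WT, 43.9 to 283 CPM in Hox-URE and 1019 to 1316 CPM in URE-AML, and was called higher in both URE lines. *Tubb1*, *Treml1* and *P2ry12*, which serve mature megakaryocytes and platelets, had 0 counts in all 9 libraries.

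Mast cells and basophils also use *Gata2*. Of 15 genes listed for them, 10 were tested. Hox-URE had 8 higher and 1 lower relative to Hox-WT (37.2% of all genes tested were called), with a median log2 fold change of 2.71 (genes at 0 in a line set at their bound). The 8 include *Prss34* and *Tpsab1*, which were tested only through Hox-URE. *Tpsab1* had 26, 18 and 23 counts there, 0 in Hox-WT and at most 1 in a URE-AML library. *Cpa3*, encoding mast cell carboxypeptidase, had 362, 565 and 717 CPM in Hox-WT, 768, 2789 and 4437 CPM in Hox-URE, and 0.848, 0.904 and 2.36 CPM in URE-AML. The basophil protease gene *Prss34* had 0.112 to 0.286 CPM in Hox-WT, 591, 442 and 1084 CPM in Hox-URE, and 0.0404 to 1.12 CPM in URE-AML. *Hpgds*, the prostaglandin D synthase gene, was the 1 that fell, from 5.40 to 8.51 CPM in Hox-WT to 0.692 to 0.971 CPM in Hox-URE. In URE-AML 2 were higher (*Mcpt8* and *Mitf*) and 5 lower than in Hox-WT (43.2% of all genes tested were called), with a median of -1.71. The summed level of the list was 509 to 838 CPM in Hox-WT, 1630 to 6373 CPM in Hox-URE and 41.3 to 75.7 CPM in URE-AML. *Mcpt4* and *Itga2* had 0 counts in all libraries and *Fcer1a* had 0 counts in both Hox lines. In bulk RNA, fewer cells of a type and less RNA per cell cannot be told apart, and the part of these cells' genes in the levels of *Gata2*, *Zfpm1* and *Tal1* was not tested.

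Hox-URE library 1 stood apart from the other Hox-URE libraries in several of these genes. It held the lowest Hox-URE level of *Tal1*, *Zfpm1* and *Lmo2*, of *Cpa3* and of *Itga2b*, and its *Cd200r3* level was 0.437 CPM against 26.6 and 58.7 CPM. Leaving it out, 7 of the 10 genes were called in Hox-URE against Hox-WT (5 higher and 2 lower), beside 39.0% of all genes tested, with 6 megakaryocyte genes higher and 3 lower, and 7 mast cell and basophil genes higher and 1 lower.

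T lymphoid genes were examined because *Gata3* is best known from T cells. Of 13 listed, 6 were tested, of which Hox-URE had 1 higher and 3 lower relative to Hox-WT (37.2% of all genes tested were called). The higher one was *Bcl11b*, a T cell commitment factor, which had 4.08, 2.24 and 1.23 CPM in Hox-URE and 0 counts in every other library, at least 23.3-fold above Hox-WT, and it too was tested only through Hox-URE. *Rag2* and *Rag1* were lower, with 33.7 to 51.1 CPM and 0.862 to 3.0 CPM in Hox-WT and 0 counts in Hox-URE. They had 0 counts in URE-AML as well, so both were tested only through Hox-WT, where they are high. *Cd3e*, *Cd3g* and *Cd8a* had 0 counts in all 9 libraries. The summed level of the list, mostly *Thy1* in the Hox lines and without it in URE-AML, where *Thy1* had 0 counts, was 194 to 477 CPM in Hox-WT, 194 to 603 CPM in Hox-URE and 1.49 to 3.09 CPM in URE-AML.

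**Figure D4:**
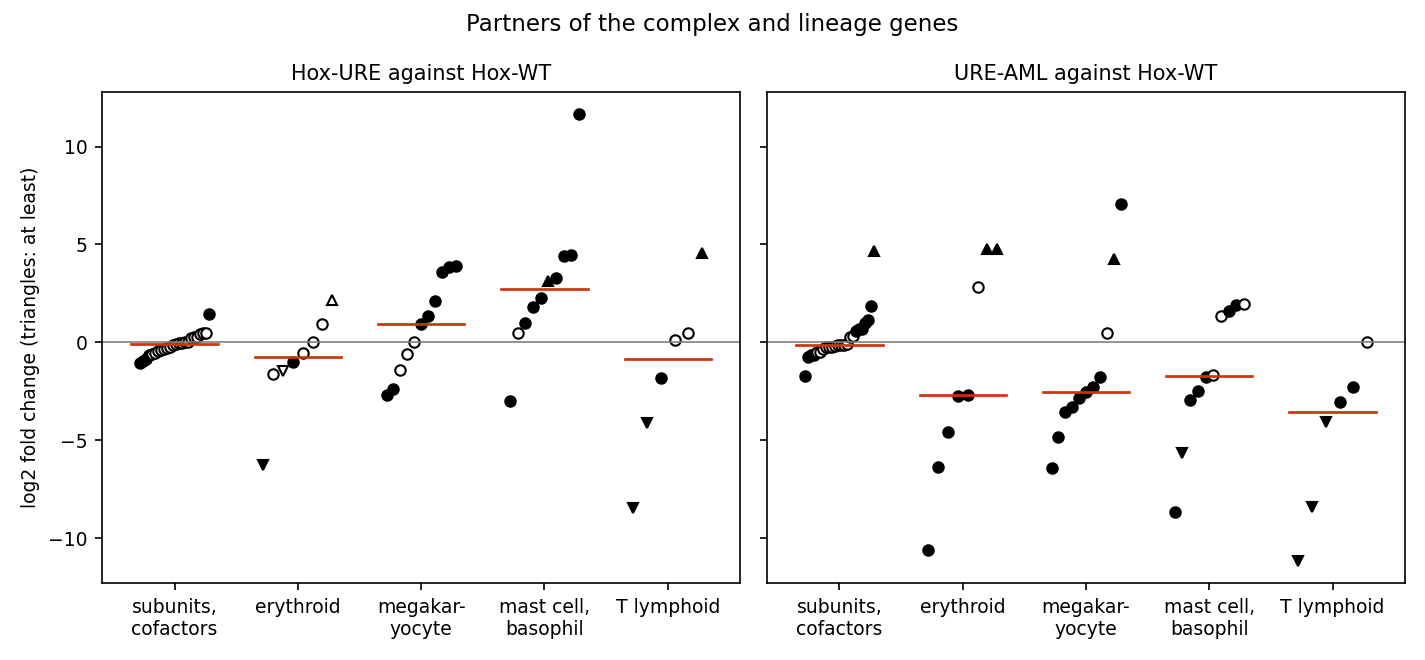
Log2 fold change against Hox-WT of every tested gene of 5 lists, in Hox-URE (left) and URE-AML (right). Each point is a gene, filled if called, triangles are lower bounds for genes at 0 in a line, and red bars are medians of the list. In Hox-URE 8 of 10 mast cell and basophil genes and 6 of 11 megakaryocyte genes are called above 0, beside 21.3% of all genes tested. The 8 mast cell and basophil genes include *Prss34* and *Tpsab1*, tested only through Hox-URE. In URE-AML 8 of 11 megakaryocyte genes are called below 0, beside 20.2% of all genes tested.

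Markers of other myeloid cells moved with the lines as well. Of 12 neutrophil genes, all tested, Hox-URE had 1 higher and 9 lower relative to Hox-WT, and 11 were higher and 1 lower in URE-AML. Of all genes tested 37.2% and 43.2% were called in these comparisons, the background of each list here. *Ly6g*, with 0 counts in Hox-WT, was tested only through URE-AML. The summed level was 11863 to 26585 CPM in URE-AML, 5680 to 9095 CPM in Hox-WT and 2797 to 4121 CPM in Hox-URE. Of 10 monocyte genes 8 were tested, of which 1 was higher and 6 were lower in Hox-URE and 2 were higher and 3 lower in URE-AML, with summed levels of 166 to 212, 847 to 948 and 281 to 646 CPM in the wild-type, Hox-URE and leukemic lines. Of the 8, *Csf1r*, *Ly86* and *Ms4a6c* were tested only through Hox-WT, with at most 4 counts in a library of another line. The Hox-URE sum was mostly *Ccr2*, a chemokine receptor gene and the 1 that was higher there, at 840.3 to 939 CPM. Of 10 progenitor genes 9 were tested, with 0 higher and 6 lower in Hox-URE, 1 higher and 8 lower in URE-AML, and summed levels of 2072 to 2383, 849 to 1351 and 259 to 294 CPM. *Ptprc*, which is on this list, was tested only through Hox-WT. *Hoxa9* had 0 counts in all libraries. Their part in the levels of the 10 genes was not tested.

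Genes with the most similar patterns were found by the root mean square difference in centred log2 CPM over the 9 libraries, among 9659 to 9660 genes with a mean of at least 5 CPM. Nearest to *Gata1* were *Tdrd7*, *Pdk1* and *Sgcb* (0.455, 0.456 and 0.497), nearest to *Gata2* were *Gm46620*, *Sfn* and *Vamp5* (0.297, 0.299 and 0.359), and nearest to *Gata3* were *2410003L11Rik*, *Galnt18* and *Gulp1* (0.191, 0.341 and 0.386). *Vamp5* had means of 74.9, 132 and 5.73 CPM in the wild-type, Hox-URE and leukemic lines. Each of these measures rests on 3 lines, whose libraries share their line.

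The tested genes next to *Tal1* on the chromosome were compared with it, a choice made after their values were seen. *Stil*, 13230 bases to the left, did not differ between Hox-URE and Hox-WT (0.04 on the log2 scale, edgeR adjusted p = 0.784). *Pdzk1ip1*, 16953 bases to the right, had 1, 11 and 3 counts in Hox-WT, 1175, 3111 and 4117 counts in Hox-URE, and 0, 0 and 1 count in URE-AML. *Pdzk1ip1* was thus higher in every Hox-URE library than in any other library, and it was tested only through Hox-URE. Hox-URE library 1 was the lowest of its line for both genes, as it was for *Zfpm1*, *Lmo2*, *Cpa3* and *Itga2b*. Beside *Gata2*, *Rpn1* and *Eefsec* both fell in URE-AML relative to Hox-WT (-1.02 and -0.84 on the log2 scale, edgeR adjusted p = 1.44e-05 and 0.00125), beside -3.59 for *Gata2*. Those of *Zfpm1* were not called there, *Banp* at -0.03 and *Zc3h18* at 0.10, beside -4.44 for *Zfpm1*, while next to *Klf1*, itself not called, *Dnase2a* was at -3.50 and *Gcdh* at 0.71 (edgeR adjusted p = 2.83e-05 and 0.0012).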

How the data were processed

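Poly-A RNA of 9 libraries of mouse cell lines, 3 per line, was sequenced from stranded libraries. Gene-level estimated counts, whole numbers in the deposited table, were made by the authors with salmon and tximport on the GRCm38 build. Whether these counts were scaled for transcript length, and the strand setting, are not given in the sources used here. Lines were taken from the labels.

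Counts were fitted with edgeR 4.0.16 (limma 3.58.1, R 4.3.3) in one quasi-likelihood model of all 9 libraries with line as the factor and TMM scaling. filterByExpr with a minimum count of 10 kept 13082 of 54347 genes, 31051 being at 0 throughout, and put aside 0.0499% of counts. The common biological coefficient of variation was 0.173. P-values were adjusted by Benjamini-Hochberg over all genes tested, and the thresholds were those of the study. Standard errors were derived from F and the size of the log2 fold change. A fold against a line at 0 used a floor of 3 counts in each of its libraries.

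The 10 genes and the gene lists were chosen with earlier results of these data known. Genes were named by rule: the 10 genes, *Spi1* and *Hoxb8*, listed genes that were called or whose 0 counts matter, and the 3 most similar genes for *Gata1*, *Gata2* and *Gata3*. Named beside it were genes not called but set against a called one, *Ptprc*, sex-linked, overlapping and neighbouring genes. *Ahsp* was not matched, and some listed genes are not reported here by name. Positions, transcript lengths and neighbours came from GENCODE M21, promoters from RefSeq.

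On simulated data for Hox-URE against Hox-WT, edgeR called 67 of 100 genes changed 2-fold and 82 of 100 changed 4-fold among 12752 tested, and 71 of 71 changed 4-fold with a mean of 5 or more CPM, beside 8 unchanged genes. Alternatives were median-ratio, upper-quartile and library size scaling, no filter, a minimum of 10 counts per library, fits of the 6 libraries compared, a replicate block, DESeq2 1.42.0, no fold cut-off, testing against 1.5-fold, other added counts for the ratio, and leaving out each library. Figures were drawn with matplotlib 3.10.9.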

Additional observations from a re-analysis of the deposited data

How the results depend on the processing

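Requiring at least 10 counts in every library lowered the number of genes called to 3200 for Hox-URE against Hox-WT, 3602 for URE-AML against Hox-WT and 3553 for URE-AML against Hox-URE, from 4873, 5648 and 5591, since it left fewer genes to test. *Gata1*, *Gata3* and *Klf1* are not in that set. Over all alternatives 4 to 7, 4 to 6 and 4 to 6 of the 10 genes were called in these comparisons, beside 23.4% to 53.0%, 27.6% to 57.7% and 27.1% to 58.0% of all genes tested. *Gata1*, *Gata2*, *Lmo2* and *Gfi1b* kept direction and call in every comparison under each alternative that gave a value. The calls of *Zfpm1*, *Tal1* and *Ldb1* that depended on a setting are given with their values above, apart from the following. The test against a fold change of 1.5 also lost *Zfpm1* for Hox-URE (adjusted p = 0.428) and *Ldb1* for URE-AML (adjusted p = 0.405) against Hox-WT. With no fold change threshold *Ldb1* was also called for Hox-URE against Hox-WT (-0.57). The cause was not tested.

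*Lyl1* and *Ldb1* changed sign near 0 without being called. Leaving out 1 library moved *Lyl1* from -0.11 to 0.068 for Hox-URE against Hox-WT, from -0.15 to 0.073 for URE-AML against Hox-WT and from -0.13 to 0.089 for URE-AML against Hox-URE. For the last pair it was -0.0059 with upper-quartile scaling, -0.00047 with at least 10 counts in every library and -0.012 with only the 6 libraries compared. *Ldb1* in that pair was 0.075 with library size only and -0.079 to 0.0052 with 1 library left out. With library size only, the median of all genes shifted to -0.083 for Hox-URE against Hox-WT and 0.11 for URE-AML against Hox-URE.

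Libraries of different lines share only a number: deviations of equally numbered libraries correlated at 0.0013 to 0.204, not all over 0.1. With the number as a replicate block, 4908, 5679 and 5584 genes and 6, 6 and 6 of the 10 were called, and *Lyl1* was -0.0016 for URE-AML against Hox-URE. Depth limits *Klf1*, *Gata1* in Hox-URE and *Gfi1b* in Hox-WT, which rest on at most 15, 3 and 39 counts per library.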
